A study of Mus musculus with 6 samples.

Results

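Pseudogenes are copies of genes that no longer encode the full protein of their parent. The small RNAs described here are piRNA-like sequences of 25 to 31 nt that matched annotated mouse pseudogenes and no other transcript class. A sequence was kept when it had no exact sense match to a small RNA gene of GENCODE M21 and when every gene that it matched exactly in the sense direction carried the word pseudogene in its M21 gene type. This rule kept 27855 of 8046210 distinct piRNA-like sequences. The choice used sequence and annotation only, and no read count. Of the 27855 sequences, 22259 matched 1 pseudogene and 5596 matched several, including 374 that matched at least 10.

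The study sequenced small RNAs of cultured mouse spermatogonial stem cells, the stem cells of sperm production. The 6 libraries were Hen1 knockout with NaIO4, Hen1 knockout, Mili knockout, wild type (WT) with NaIO4, RNA bound by an antibody to MILI (MILI IP), and WT, with 1 library in each group. All cells derive from a line set up from a male of 15 days, an F1 between C57BL/6 and DBA2 that carried actin-EGFP (the strain label itself reads C57BL/6), grown on fibroblast feeders. Both knockouts were made with transfected Cas9 and guide RNAs and picked as single colonies checked by Sanger sequencing, so each knockout stands for the colonies picked and not for independent animals. NaIO4 was used on total RNA of WT and Hen1 knockout cells from a 200 mM stock. Knockout of either gene could not be checked here, since small RNA libraries do not measure mRNA. Exogenous spike-in RNAs were mixed into 5 of the libraries and were not identified here.

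PIWI-interacting RNAs (piRNAs) are bound by PIWI proteins of the germ line, such as MILI, and guide them to complementary RNA. Their 3′ end is trimmed and then methylated on the 2′ hydroxyl by HEN1. NaIO4 oxidises RNA ends whose 2′ and 3′ hydroxyls are both free, which keeps them out of the library, so the treatment favours methylated ends. Primary piRNAs usually begin with uridine (T in the reads). Partners made by reciprocal slicing, the ping-pong cycle, carry adenosine at position 10 and overlap each other by 10 nt at their 5′ ends. Transcribed pseudogenes are known as one source of piRNAs, and piRNAs antisense to a pseudogene can be complementary to mRNA of its parent gene.

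The most abundant sequences of pseudogenes that lead the counts are shown because they carry the 3 combinations of piRNA marks met in this set. In each, a capital marks a T at position 1 or an A at position 10. Each of the 4 matches 1 pseudogene. Rps4l lies at chr6:148354848-148354875 on the plus strand, Gm6641 at chr5:13081192-13081221 on the plus strand, Olfr1372-ps1 at chr11:52159645-52159672 on the minus strand and Gm48368 at chr12:62535828-62535856 on the plus strand (GRCm38, all within exons).
Rps4l: TtcctgaggAacaggctcaagtacgccc
Gm6641: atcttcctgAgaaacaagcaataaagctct
Olfr1372-ps1: TgcaacggaAtgttatttggatgcgcct
Gm48368: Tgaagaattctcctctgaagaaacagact
The Rps4l sequence had 1 read in Hen1 KO with NaIO4, 19 in Hen1 KO, 0 in Mili KO, 98 in WT with NaIO4, 837 in the MILI IP and 36 in WT. The Gm6641 sequence, which has A at position 10 but no T at position 1, had 18 reads in Hen1 KO with NaIO4, 90 in Hen1 KO, 0 in Mili KO, 1077 in WT with NaIO4, 818 in the MILI IP and 509 in WT. The Olfr1372-ps1 sequence had 18 reads in Hen1 KO with NaIO4, 207 in Hen1 KO, 0 in Mili KO, 424 in WT with NaIO4, 225 in the MILI IP and 138 in WT. Rps4l and Olfr1372-ps1 thus show both marks, Gm6641 only the adenosine and Gm48368 only the uridine.

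The libraries held 2604390 to 25240941 reads of 18 to 35 nt, and levels are given per 1000000 of these reads (rpm) or as a percentage of them. Pseudogene piRNA-like reads numbered 2238 in Hen1 KO with NaIO4, 29164 in Hen1 KO, 227 in Mili KO, 30933 in WT with NaIO4, 66174 in the MILI IP and 12356 in WT. Their share of the library was 0.0859% in Hen1 KO with NaIO4 (95% exact Clopper-Pearson interval 0.0824 to 0.0896), 0.249% in Hen1 KO (0.246 to 0.252) and 0.00472% in Mili KO (0.00413 to 0.00538). It was 0.301% in WT with NaIO4 (0.297 to 0.304), 0.262% in the MILI IP (0.260 to 0.264) and 0.169% in WT (0.166 to 0.172). The intervals of the 6 libraries do not overlap. Intervals and floors reflect counting error alone: the reads passed through PCR and carry no molecular identifiers, so copies of 1 molecule count several times. With 1 library in each group no test between groups was possible: each ratio compares 2 libraries and has no replicate check. In bulk RNA, fewer cells that make these RNAs and less RNA per cell cannot be told apart.

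Among all piRNA-like reads, the pseudogene share was 0.357% in Hen1 KO with NaIO4, 0.416% in Hen1 KO, 0.0350% in Mili KO, 0.457% in WT with NaIO4, 0.354% in the MILI IP and 0.396% in WT. It was thus of like size in 5 libraries and far lower in Mili KO. The denominators moved as well. MicroRNAs took 2.71% of reads in Hen1 KO with NaIO4, 7.35% in Hen1 KO, 34.0% in Mili KO, 1.49% in WT with NaIO4, 0.838% in the MILI IP and 19.2% in WT. Of 10 germ line microRNAs of the X-linked cluster, 9 were detected in every library, with Mir465a not found under that symbol in the annotation. Their summed level, with a read that fits several hairpins counted for each, was lowest in the MILI IP at 2073 rpm and highest in Mili KO at 176666 rpm, against 96486 rpm in WT. Of 7 microRNAs of fibroblasts, the feeder cells, 6 were detected in every library at 193 to 8574 rpm summed, with 2901 rpm in WT. The part of these shifts in the results was not tested.

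The pseudogene piRNAs were spread over many genes, and a few of them carried much of the signal. Of 13523 annotated pseudogenes, 3309 (24.5%) had at least 1 such sequence and 2137 had a sequence found in no other pseudogene. Reads of sequences that match 1 pseudogene are called one-gene reads below. In the MILI IP 15 pseudogenes held 50% of the one-gene reads, and in WT 16 did. The 12 leading pseudogenes of the MILI IP held 47.7% of one-gene reads there and 46.8% in WT. Most sequences were rare. Of all members, 13830 (49.6%) were seen only in the MILI IP, the deepest library, 11862 had a single read over the 6 libraries, and 2074 had at least 10.

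**Figure D1:**
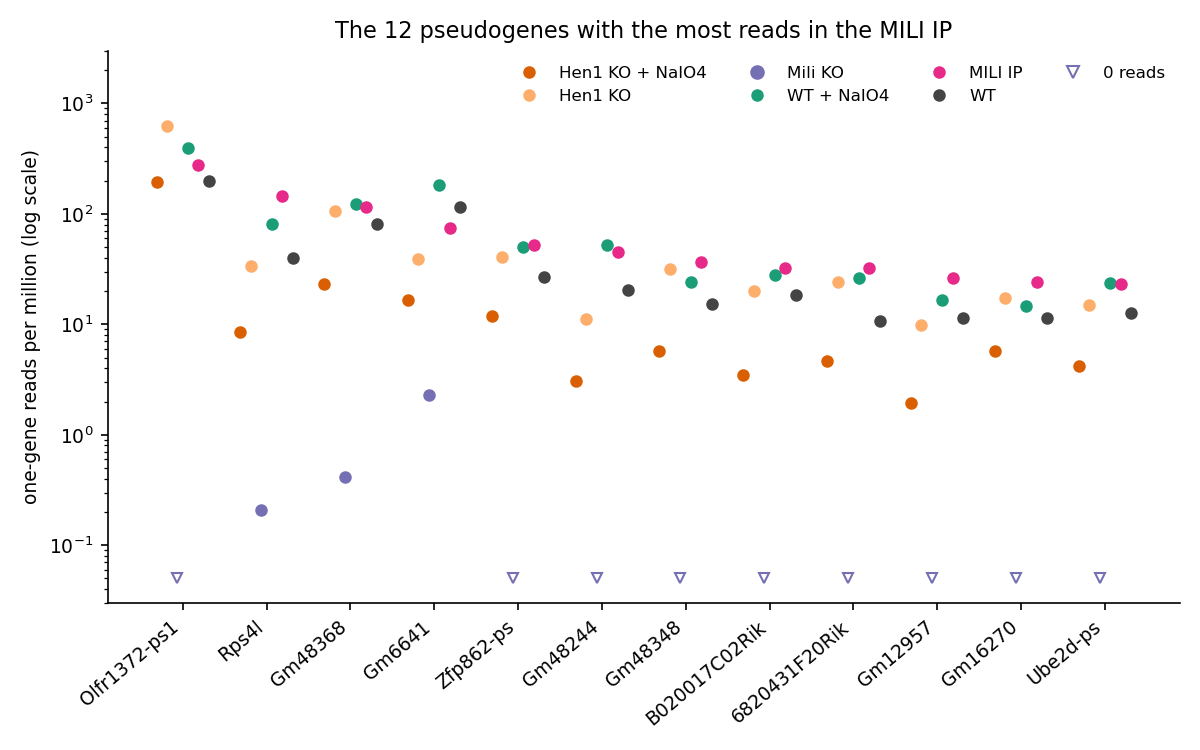
Level in one-gene rpm (vertical axis, log scale) of the 12 pseudogenes with the most one-gene reads in the MILI IP, with 1 point for each library and an open triangle for 0 reads. Olfr1372-ps1 stands above the others in every library but Mili KO, where it has 0 reads, and Mili KO has reads only for Rps4l, Gm48368 and Gm6641.

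The leading pseudogene was Olfr1372-ps1 (ENSMUSG00000108218.2), a transcribed unprocessed pseudogene at chr11:52154722-52168159 on the minus strand, named after an odorant receptor gene. It had 504 one-gene reads in Hen1 KO with NaIO4, 7317 in Hen1 KO, 0 in Mili KO, 4094 in WT with NaIO4, 6946 in the MILI IP and 1440 in WT, from 1431 distinct sequences. As levels these are 194 rpm in Hen1 KO with NaIO4, 625 rpm in Hen1 KO, 0 in Mili KO, 398 rpm in WT with NaIO4, 275 rpm in the MILI IP and 197 rpm in WT. It held 14.9% of one-gene reads in the MILI IP and 16% in WT. Hen1 KO was the highest of the 6 libraries and Mili KO the lowest. The span of Olfr1372-ps1 overlaps another annotated gene, Gm26551, on the same strand. The part of that gene in these reads was not tested.

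Nearly all reads of Olfr1372-ps1 began outside the odorant receptor copy. Its longest transcript has 9812 nt in 3 exons, and the stretch similar to odorant receptor genes, best matched by a transcript of Olfr1383 (96.3% identity, with 52.0% of the match in its coding sequence), covers 18.3% of it, from position 8021 to the end. The last exon, which begins at position 8022, had 0 reads in Hen1 KO with NaIO4, 0 in Hen1 KO, 0 in WT with NaIO4, 5 in the MILI IP and 3 in WT. A window of 1750 nt from position 5751 to 7500, chosen after the reads were placed, makes up 17.8% of the transcript. It held 99.6% of the reads in Hen1 KO with NaIO4, 99.0% in Hen1 KO, 98.4% in WT with NaIO4, 98.0% in the MILI IP and 98.2% in WT. Within the MILI IP the reads began at 447 different positions of the transcript, so they were not copies of a few sequences, and the most abundant sequence made up 3.24%. Of all 12307 piRNA-like reads of the MILI IP that fit this transcript, whether or not they also fit another gene, 0.0975% began in the receptor copy.

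**Figure D2:**
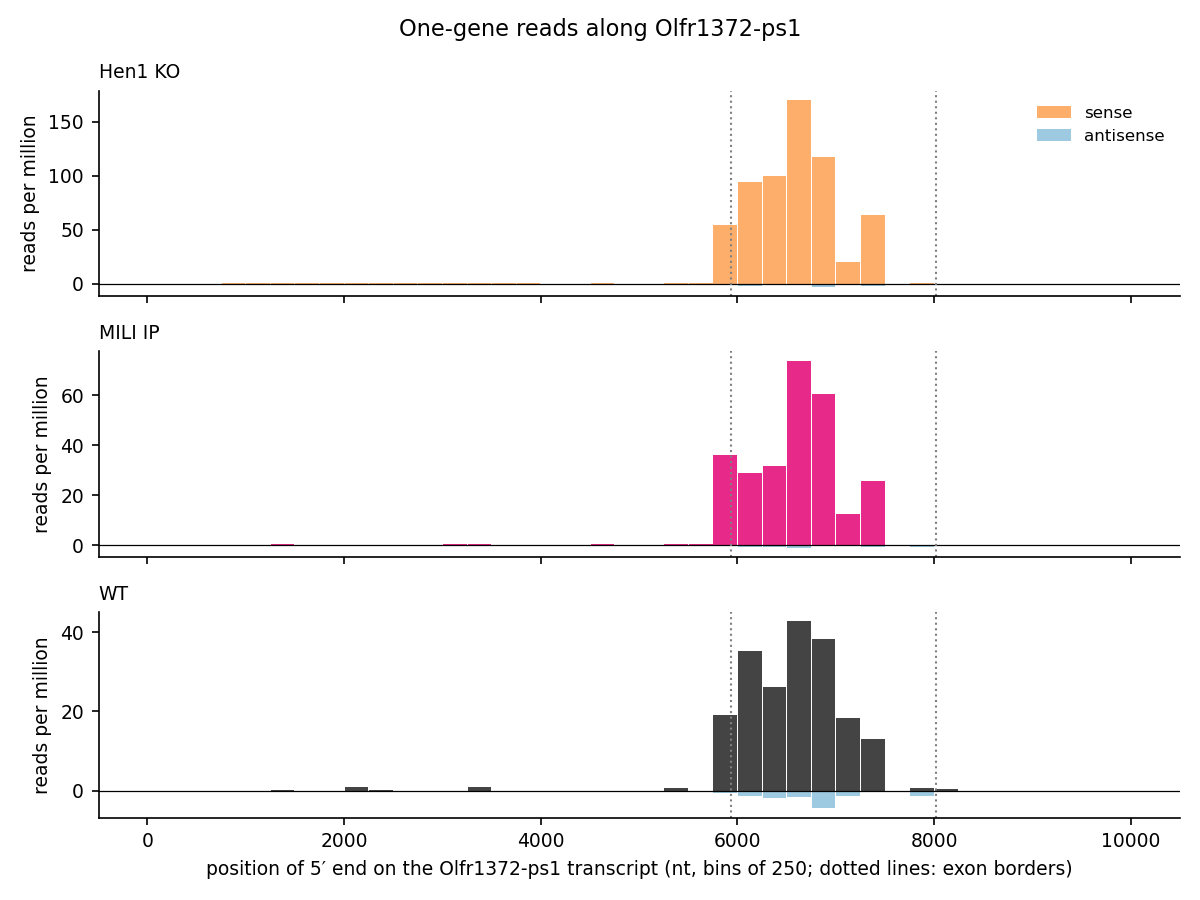
Level in one-gene rpm by the position of their 5′ end on the Olfr1372-ps1 transcript (nt, bins of 250) in Hen1 KO, the MILI IP and WT, sense above and antisense below the zero line, with dotted lines at the exon borders. In all 3 libraries nearly all reads fall between positions 5751 and 7500, and almost none in the last exon, which holds the odorant receptor copy.

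Antisense reads were few at Olfr1372-ps1. They numbered 1 in Hen1 KO with NaIO4, 123 in Hen1 KO, 0 in Mili KO, 126 in WT with NaIO4, 106 in the MILI IP and 94 in WT. Of its one-gene reads in the MILI IP, 41.8% lay within 1 mismatch of a gene that is no pseudogene, mainly Gm45104 (21%) and the lincRNA Gm42851 (20.9%).

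The second pseudogene by MILI IP reads, Rps4l, is a processed copy of Rps4x, which encodes a protein of the small ribosomal subunit. It lies at chr6:148354656-148355598 on the plus strand, in 1 exon of 943 nt, opposite to the gene Tmtc1, and is 79.7% identical to Rps4x over 86.0% of its length. It had 22 one-gene reads in Hen1 KO with NaIO4, 398 in Hen1 KO, 1 in Mili KO, 841 in WT with NaIO4, 3695 in the MILI IP and 290 in WT. The MILI IP was thus the highest library at 146 rpm, against 39.6 rpm in WT. Here the reads did come from the parent-like stretch, with 98.8% of them beginning inside it in the MILI IP. Only 0.0271% of its MILI IP reads lay within 1 mismatch of another gene, namely Rps4x.

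The third, Gm48368 on chromosome 12, resembles Noct, the gene of nocturnin, an enzyme under circadian control. It had 61 one-gene reads in Hen1 KO with NaIO4, 1236 in Hen1 KO, 2 in Mili KO, 1264 in WT with NaIO4, 2894 in the MILI IP and 594 in WT. The similar stretch is the 5′ untranslated part of the Noct transcript (85.5% identity, 53.7% of the pseudogene), and it held 47.9% of the MILI IP reads and 39.4% of the WT reads. Of the MILI IP reads, 49.4% lay within 1 mismatch of Gm38194 and 22.7% within 1 mismatch of Noct itself.

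Gm6641, at chr5:13080828-13082142 on the plus strand, is a processed copy of Hnrnpa3, which encodes an RNA-binding protein. It had 43 one-gene reads in Hen1 KO with NaIO4, 456 in Hen1 KO, 11 in Mili KO, 1884 in WT with NaIO4, 1864 in the MILI IP and 849 in WT. It was the pseudogene with the second most reads in WT, and 60.0% of its WT reads were the single sequence shown for it. Only 32.2% of its WT reads began with T, while 82.6% had A at position 10. None of its 1864 MILI IP reads began in the stretch similar to Hnrnpa3, although that stretch makes up 65.7% of the transcript; over all piRNA-like reads of the MILI IP that fit Gm6641, 3.58% began there.

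The other 8 of the 12 leading pseudogenes had 584 to 1318 one-gene reads in the MILI IP, 79 to 195 in WT and 0 in Mili KO. Zfp862-ps is a unitary pseudogene, the type without an intact counterpart in the species, of a zinc finger gene. It had 31 reads in Hen1 KO with NaIO4, 477 in Hen1 KO, 0 in Mili KO, 516 in WT with NaIO4, 1318 in the MILI IP and 195 in WT, from 752 distinct sequences. Gm12957 is a copy of the histone H2B gene Hist1h2bq (94.8% identity over 100% of its 377 nt) and the reverse case in breadth. It had 660 MILI IP reads from 9 sequences, of which the most abundant, at chr4:119521152-119521181 on the plus strand, made up 67.9%. All of its reads lay within 1 mismatch of H2B genes, and only 5.91% of the piRNA-like reads that fit it in the MILI IP fit no gene but pseudogenes.
Gm12957: Tcctccaaggccatgggcatcatgaactct
Gm48348 had 922 MILI IP reads, B020017C02Rik 825, 6820431F20Rik 821, Gm16270 612 and Ube2d-ps 584. In these 5 no single sequence made up over 10% of the MILI IP reads. In Gm48244, with 1132 MILI IP reads, 1 sequence made up 33.9%.

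Summed over reads, the share from the parent-like part of a pseudogene differed with its type, though 1 pseudogene weighed heavily in 1 of the groups. Over the 1979 pseudogenes with one-gene reads and a stretch similar to a protein-coding transcript, that stretch covered 79.0% of the transcript length and held 53.5% of the reads in the MILI IP and 50.2% in WT. For processed pseudogenes, which arise from reverse-transcribed mRNA, it covered 85.6% and held 70.1% in the MILI IP and 63.9% in WT. For the other types it covered 53.3% and held 21.2% in the MILI IP and 20.1% in WT. Olfr1372-ps1 alone made up 6946 of the 13802 MILI IP reads of these other types, with 5 inside the stretch. In WT it made up 1440 of their 2517 reads, with 3 inside. How far the types differ without this pseudogene was not tested. Inside their parent-like stretch, 6820431F20Rik had 0% of MILI IP reads and Gm48348 had 1.41%. Ube2d-ps had 0% there of the 366 MILI IP reads placed on the transcript used, out of its 584 one-gene reads. Sequences identical to the parent are left out by the rule, which lowers these shares for close copies by an amount that was not tested.

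By parent, the 2137 pseudogenes fell into 982 families, of which 729 had 1 pseudogene, and 121 pseudogenes had no parent by the criteria used. Receptors of smell and pheromones were parents of 99 pseudogenes with one-gene reads and held 22.6% of these reads in the MILI IP and 33.9% in WT, led by Olfr1372-ps1 (66% of the list's MILI IP reads and 1440 of its 3047 WT reads), whose reads lie outside the receptor copy. The list also holds Vmn2r79 pseudogenes, such as Gm48786 and Gm48498, whose match lies in the 3′ untranslated stretch and not in coding sequence. Ribosomal protein genes were parents of 593 pseudogenes with one-gene reads and held 13.4% in the MILI IP and 7.63% in WT, of which Rps4l made up 58.9% in the MILI IP. Zinc finger genes were parents of 64 and held 7.16% in the MILI IP and 4.91% in WT. Some of these parents rest on short matches outside coding sequence. Gm48348 matched Zfp773 over 5.3% of its length, and Thap6 matched Zfp7 over 4.5%. RNA-binding protein genes were parents of 30 and held 4.53% in the MILI IP and 9.93% in WT, with Gm6641 at 88.1% of the MILI IP reads. Chromatin protein genes were parents of 48 and held 2.46% in the MILI IP and 1.39% in WT. Pseudogenes of the glycolysis list (34 with reads), which includes Gapdh, held 0.246% in the MILI IP and 0.0891% in WT. No pseudogene of a piRNA pathway or germ line gene on the list used had a one-gene read. How many annotated pseudogenes have such a parent was not counted, so this result has no total to be set against.

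Sequences shared by copies are counted once for a family, so the families are larger than the sums of their pseudogenes. The 3 Noct pseudogenes together had 161 reads in Hen1 KO with NaIO4, 2642 in Hen1 KO, 2 in Mili KO, 2635 in WT with NaIO4, 7498 in the MILI IP and 1144 in WT, the most of any family in the MILI IP. The 29 Rpsa pseudogenes, copies of a gene for a small ribosomal subunit protein also known as laminin receptor, had 7 reads in Hen1 KO with NaIO4, 132 in Hen1 KO, 0 in Mili KO, 319 in WT with NaIO4, 1703 in the MILI IP and 125 in WT. In them A at position 10 was found in 8.98% of MILI IP reads. Of MILI IP reads, 80.8% (Noct family) and 61.8% (Rpsa family) lay within 1 mismatch of a gene that is no pseudogene.

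A large family of 46 processed pseudogenes, such as Gm48786, Gm48498 and Gm47842, was similar over nearly its whole length to the 3′ untranslated stretch of a Vmn2r79 transcript. Vmn2r79 encodes a pheromone receptor, and the match does not lie in its coding sequence. Sense reads of the family numbered 296 in Hen1 KO with NaIO4, 3574 in Hen1 KO, 7 in Mili KO, 4554 in WT with NaIO4, 4489 in the MILI IP and 2048 in WT. Of its MILI IP reads 94.9% lay within 1 mismatch of a gene that is no pseudogene, spread over 253 genes. A stood at position 10 in 59.9% of its reads in the MILI IP and 68.8% in WT, and T at position 1 in 61.5% in the MILI IP. Antisense reads to the family numbered 433 in Hen1 KO with NaIO4, 2729 in Hen1 KO, 116 in Mili KO, 3825 in WT with NaIO4, 3143 in the MILI IP and 1449 in WT, and 90.4% of these began with T in the MILI IP. Antisense reads thus outnumbered sense reads in Hen1 KO with NaIO4 and in Mili KO, at 59.4% and 94.3% of both strands, and were fewer in the other 4 libraries, at 41.2% in the MILI IP to 45.6% in WT with NaIO4.

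With NaIO4, pseudogene piRNAs took a larger share of the WT library and a smaller share of the Hen1 KO library. The level was 3008 rpm in WT with NaIO4, against 1687 rpm in WT, a ratio of 1.78 (95% counting interval 1.75 to 1.82). It was 859 rpm in Hen1 KO with NaIO4, against 2492 rpm in Hen1 KO, a ratio of 0.345 (0.330 to 0.360), or 2.90-fold lower. The ratio in Hen1 KO was 0.193 times that in WT (0.184 to 0.203). The size depends on what the reads are set against. Per piRNA-like read the ratio was 0.858 in Hen1 KO and 1.15 in WT, and per microRNA read it was 0.936 in Hen1 KO and 23.0 in WT, since microRNA shares themselves changed with NaIO4.

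Of the 98 pseudogenes with at least 50 one-gene reads in both WT libraries together, 42 had a ratio of at least 2 with NaIO4 and 0 a ratio of at most 0.5, where 37.4% of all genes were at or above 2 and 0.262% at or below 0.5. Their median ratio was 1.88, against 1.84 over all genes. In Hen1 KO, 54 of 67 pseudogenes were at least 2-fold lower with NaIO4 and 1 was higher, where 86.4% of all genes were lower and 0.120% higher. The median was 0.294, against 0.287 over all genes. Hen1 KO with NaIO4 held 1569 one-gene reads, against 22596 in Hen1 KO, so pseudogenes reached 50 reads mainly through the untreated library. The ratio of both ratios was at most 0.5 in 56 of 60 pseudogenes and at least 2 in 1, where 96.8% of all genes were at most 0.5 and 0.276% at least 2. The pseudogenes thus lie near the background in both genotypes.

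All 12 leading pseudogenes had a ratio with NaIO4 below 1 in Hen1 KO and above 1 in WT, though the WT interval of Gm16270 (0.989 to 1.69) covers 1. In Hen1 KO, their ratios ran from 0.182 (B020017C02Rik) to 0.428 (Gm6641), and in WT from 1.29 (Gm16270) to 2.53 (Gm48244). Olfr1372-ps1 had a ratio of 0.310 in Hen1 KO (0.283 to 0.339) and of 2.02 in WT (1.91 to 2.15). Rps4l had 0.254 in Hen1 KO and 2.06 in WT. Among pseudogenes with at least 200 reads summed over the 2 libraries of a pair, the highest ratios in WT were those of Gm47056 (5.22, from 201 reads with NaIO4 and 27 without), Thap6 (3.03) and Vmn1r-ps14 (2.91), and the lowest those of Gm48786 (1.22), Gm48498 (1.26) and Gm16270. In Hen1 KO the lowest were Gm47842 (0.124), B020017C02Rik and Gm48348 (0.186) and the highest Gm371 (0.463, from 25 reads with NaIO4 and 247 without), Gm6641 and Gm16270 (0.342).

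The 1 pseudogene that was at least 2-fold higher with NaIO4 in Hen1 KO was Gm38356 on chromosome 3, singled out after its values were seen. It had 70 reads in Hen1 KO with NaIO4, 41 in Hen1 KO, 5 in Mili KO, 82 in WT with NaIO4, 32 in the MILI IP and 47 in WT. Its ratio in Hen1 KO was 7.63, and all of its MILI IP reads lay within 1 mismatch of another gene.

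**Figure D3:**
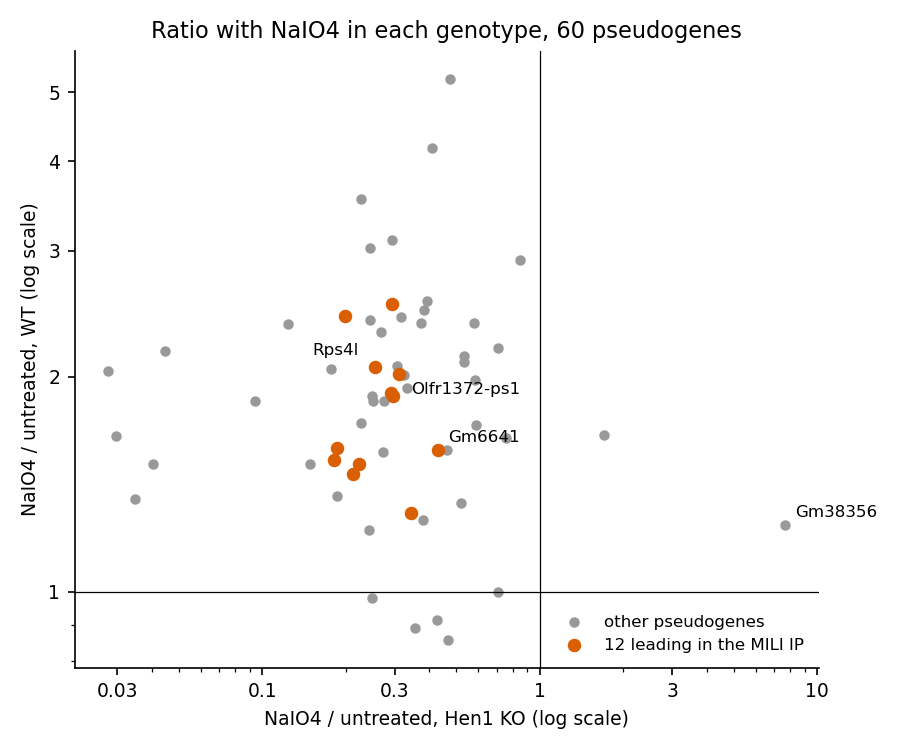
Ratio of one-gene rpm with NaIO4 over untreated in Hen1 KO (horizontal axis) and in WT (vertical axis), both on log scales, for the 60 pseudogenes with at least 50 reads summed over each pair of libraries, with thin lines at 1. The 12 leading pseudogenes of the MILI IP (orange) all lie left of 1 in Hen1 KO and above 1 in WT, and Gm38356 stands far to the right.

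Without treatment, pseudogene piRNAs stood at 2492 rpm in Hen1 KO, against 1687 rpm in WT, a ratio of 1.48 (1.45 to 1.51). It was 1.05 per piRNA-like read and 3.86 per microRNA read, and 0.992 when each distinct sequence was counted once. Without Olfr1372-ps1 it was 1.25. Of 93 pseudogenes with at least 50 reads, 25 reached a ratio of 2 in Hen1 KO and 5 were at or below 0.5, where 10.9% of all genes were higher and 3.86% lower. The share of pseudogenes that were higher, 26.9%, was above that of protein-coding genes, 9.98%, and near that of long non-coding genes, 29.3%. Their median ratio was 1.32, against 1.14 for protein-coding and 1.48 for long non-coding genes. This difference was not tested.

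Among the 17 pseudogenes with at least 200 reads in Hen1 KO and WT together, Olfr1372-ps1 had the second highest ratio, 3.18 in Hen1 KO against WT (3.0 to 3.36). Gm11331, similar to the coding sequence of 1500011B03Rik, had 24 reads in Hen1 KO with NaIO4, 486 in Hen1 KO, 0 in Mili KO, 156 in WT with NaIO4, 151 in the MILI IP and 31 in WT. Its ratio of Hen1 KO to WT, the highest of the 17, was 9.66 (6.74 to 13.9). Another copy of the same parent, Gm13988 on chromosome 2, was noticed after its values were seen, with 64 reads in Hen1 KO and 0 in WT. Gm47842 of the Vmn2r79 family had a ratio of 2.81. The other way, Gm6641 had a ratio of 0.336 (0.300 to 0.377), Gm48244 of 0.543 and Rps4l of 0.858 (0.738 to 0.998). The single Gm6641 sequence with the most reads had a ratio of 0.111 (0.0884 to 0.138).

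In Mili KO the pseudogene piRNAs were rare, at 47.2 rpm in Mili KO, against 1687 rpm in WT, which is 35.7-fold lower (31.3 to 40.8). Per piRNA-like read the ratio was 0.0884, per microRNA read 0.0158 and with each distinct sequence counted once 0.100, against 0.0280 per read. Of 29 pseudogenes with at least 50 reads, 28 were at least 2-fold lower and 0 higher in Mili KO, where 98.7% of all genes were lower and 0.198% higher. Mili KO held 137 one-gene reads in all, against 8976 in WT, so pseudogenes reached 50 reads mainly through WT. The split of this count was thus largely set by the filter. Olfr1372-ps1 had 0 reads in Mili KO and 1440 in WT, which is at least 315-fold lower at a floor of 3 reads in Mili KO. Zfp862-ps was at least 42.7-fold lower and Gm48244 at least 32.8-fold lower on the same floor. The 1 pseudogene that was not lower was Gm28438 on chromosome 1, a copy of the mitochondrial gene mt-Nd3 named after its values were seen. It had 3 reads in Hen1 KO with NaIO4, 19 in Hen1 KO, 21 in Mili KO, 13 in WT with NaIO4, 23 in the MILI IP and 29 in WT. The pseudogene is 99.7% identical to mt-Nd3, and all of its MILI IP reads lay within 1 mismatch of another gene. In the MILI IP and WT, 0% of its reads had T at position 1 and 0% had A at position 10. Whether its reads came from mitochondrial RNA was not tested.

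What was left in Mili KO had other features. The 227 reads came from 68 distinct sequences, of which 17 were seen in the MILI IP. Of these reads, 73.6% (67.3 to 79.2) lay within 1 mismatch of a gene that is no pseudogene, against 57.3% in WT. T stood first in 27.8% of the reads (22.0 to 34.1), against 71.5% in WT, and the commonest length was 25 nt. The most abundant sequence, shared by Gm45105 and 1 other pseudogene and placed at chr7:131493603-131493627 on the minus strand, had 30 reads in Hen1 KO with NaIO4, 48 in Hen1 KO, 30 in Mili KO, 19 in WT with NaIO4, 1 in the MILI IP and 10 in WT. It lies within 1 mismatch of a gene that is no pseudogene, and sequences 1 mismatch away that match such a gene had 52 reads in Mili KO. The sequence carries neither T at position 1 nor A at position 10.
Gm45105: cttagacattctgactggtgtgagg

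In the MILI IP pseudogene piRNAs stood at 2622 rpm, against 1687 rpm in WT, a ratio of 1.55 (1.52 to 1.58). Per piRNA-like read the ratio was 0.894 and with each distinct sequence counted once 0.901, so the direction turned, while per microRNA read it was 35.6. All comparisons with WT share the 1 untreated WT library, so they are not independent. Of 152 pseudogenes with at least 50 reads, 69 reached a ratio of 2 in the MILI IP and 16 were at or below 0.5, where 63.6% of all genes were higher and 0.616% lower. The 50 reads were summed over both libraries, and the MILI IP held 46673 one-gene reads, against 8976 in WT. Pseudogenes could thus pass through the MILI IP alone, and the count of higher ones leans on this filter. The median ratio was 1.84, against 2.28 over all genes. Of the 16 that were lower, 9 belong to the Vmn2r79 family (of 26 of that family with enough reads), 2 to the Vmn1r family and 2 to the Vmn2r53 family.

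The family as a whole had a ratio of 0.636 in the MILI IP against WT (0.603 to 0.670) for sense reads and 0.629 for antisense reads. Its member with the lowest ratio, Gm42718, was picked after its values were seen. It had 2 reads in Hen1 KO with NaIO4, 75 in Hen1 KO, 0 in Mili KO, 176 in WT with NaIO4, 20 in the MILI IP and 83 in WT, a ratio of 0.0712. Among pseudogenes with at least 200 reads in the MILI IP and WT together, the lowest were Gm6641 (0.637, 0.587 to 0.691), Gm48786 (0.645) and Gm48498 (0.810, 0.620 to 1.06). The highest were Gm48789 (10.2, 4.68 to 22.2), Gm12260, a copy of the histone gene Hist1h3g (5.14), and Pisd-ps1, a copy of a gene for a mitochondrial phospholipid enzyme (4.86). Gm48789 had 228 reads in the MILI IP and 6 in WT, from 5 sequences that are all antisense to Usp34. All of its MILI IP reads lay within 1 mismatch of a gene that is no pseudogene. The span of Gm48789 overlaps Tmod3 on the same strand, and that of Gm12260 overlaps Trim17. The part of these genes in the reads was not tested. The Rpsa family had a ratio of 3.95 (3.30 to 4.74), Rps4l 3.69 (3.27 to 4.16) and the Cdh11 family 2.88.

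T stood at position 1 in 74.8% of pseudogene piRNA-like reads in Hen1 KO with NaIO4, 79.3% in Hen1 KO, 27.8% in Mili KO, 75.9% in WT with NaIO4, 81.2% in the MILI IP and 71.5% in WT. For piRNA-like reads of protein-coding genes it was 82.4% in Hen1 KO with NaIO4, 85.0% in Hen1 KO, 30.2% in Mili KO, 85.1% in WT with NaIO4, 87.6% in the MILI IP and 83.1% in WT. For long non-coding genes it was 42.5% in Hen1 KO with NaIO4, 74.2% in Hen1 KO and 8.31% in Mili KO. It was 73.9% in WT with NaIO4, 82.1% in the MILI IP and 64.5% in WT for these genes. The pseudogene reads were thus lower in this mark than the protein-coding ones in every library, though in Mili KO their interval (22.0 to 34.1) covers the protein-coding value. The pseudogene reads were higher than the long non-coding ones in every library but the MILI IP. A stood at position 10 in 45.0% in Hen1 KO with NaIO4, 41.3% in Hen1 KO, 26.9% in Mili KO, 46.6% in WT with NaIO4, 39.1% in the MILI IP and 46.8% in WT. For protein-coding genes it was 24.3% in Mili KO and 28.3% to 30.4% in the others, and for long non-coding genes 16% in Mili KO and 29% to 35.3% in the others. For reads of the remaining gene types, including those that also match a pseudogene, it was 42.5% in Hen1 KO with NaIO4, 45.3% in Hen1 KO, 13.4% in Mili KO, 45.9% in WT with NaIO4, 43.8% in the MILI IP and 47.3% in WT, which is above the pseudogene value in Hen1 KO and the MILI IP. The pseudogene reads were higher in this mark than the protein-coding ones in all 6 libraries, though again their Mili KO interval (21.2 to 33.1) covers the protein-coding value. Reads with A at position 10 and no T at position 1 made up 13.4% in Hen1 KO with NaIO4, 11.1% in Hen1 KO, 10.6% in Mili KO, 15.6% in WT with NaIO4, 9.87% in the MILI IP and 18.2% in WT. Counting each sequence once, A at position 10 stood in 34.4% in the MILI IP and 40.3% in WT, which is still above protein-coding genes at 28.4% in the MILI IP and 28.9% in WT. Without Gm6641, T stood first in 82.1% of reads in the MILI IP and 74.4% in WT, and A stood at position 10 in 38.2% in the MILI IP and 44.2% in WT.

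Pseudogene piRNAs were shorter in Hen1 KO. Their mean length was 27.5 nt in Hen1 KO with NaIO4, 27.3 nt in Hen1 KO, 27.9 nt in Mili KO, 28.4 nt in WT with NaIO4, 28.2 nt in the MILI IP and 28.5 nt in WT. Reads of 25 and 26 nt made up 12% and 22.6% in Hen1 KO, against 3.95% and 8.76% in WT. At the 112 pseudogene 5′ ends with enough reads in both untreated libraries, the mean length was 27.7 nt in Hen1 KO and 28.5 nt in WT, a difference of -0.75 nt. Reads were shorter in Hen1 KO at 87 ends, longer at 15 and equal at 10. Between the MILI IP and WT the same difference over 125 ends was -0.09 nt, and between WT with NaIO4 and WT over 123 ends it was -0.11 nt.

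**Figure D4:**
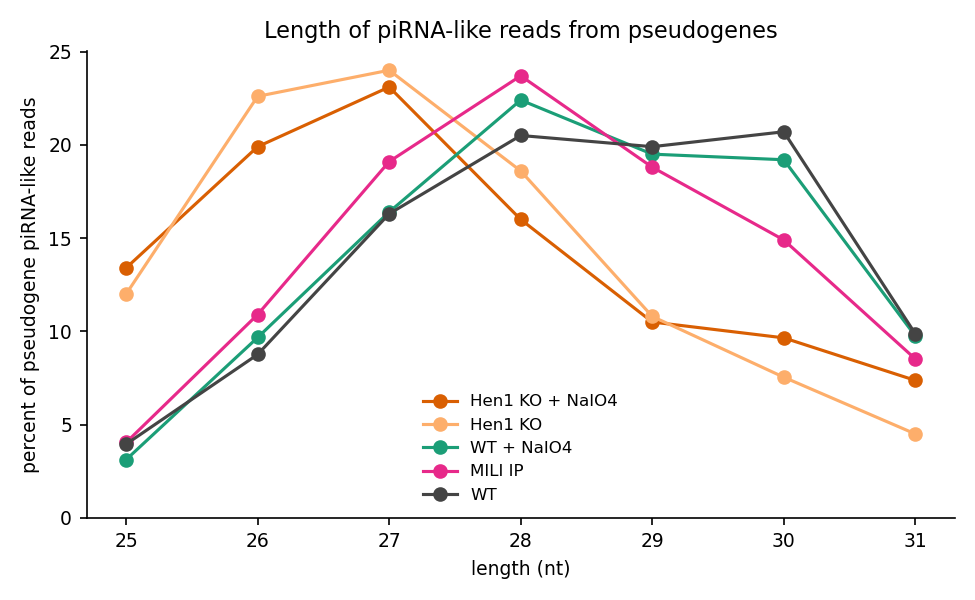
Percentage of pseudogene piRNA-like reads (vertical axis) at each length from 25 to 31 nt (horizontal axis) in 5 libraries; Mili KO, with 227 reads, is left out. Both Hen1 KO libraries peak at 27 nt, WT with NaIO4 and the MILI IP at 28 nt, and WT is nearly level between 28 and 30 nt.

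The 3′ ends also differed by added bases. Reads that fit a pseudogene piRNA after removal of up to 3 bases that mismatch the transcript (tailed reads) made up 18% in Hen1 KO with NaIO4 (16.5 to 19.5), 20.9% in Hen1 KO (20.5 to 21.4), 2.58% in Mili KO, 9.55% in WT with NaIO4 (9.24 to 9.87), 8.07% in the MILI IP (7.87 to 8.27) and 10.7% in WT (10.2 to 11.2). For protein-coding genes the share was 17.5% in Hen1 KO, against 6.13% in WT. Tails of a single T made up 8.16% of pseudogene reads in Hen1 KO, against 3.40% in WT, and tails of a single A 4.03% in Hen1 KO, against 1.45% in WT. A mismatch to another gene or an allele of the DBA2 parent would be counted as a tail as well, and its part was not tested. In the transcript, the base after the 3′ end was T in 33.8% of reads in Hen1 KO with NaIO4 (31.4 to 36.1), 26% in Hen1 KO (25.4 to 26.6), 57.8% in Mili KO (49.0 to 66.2), 32.1% in WT with NaIO4, 31% in the MILI IP and 33.8% in WT (32.9 to 34.8). Untreated Hen1 KO was thus the lowest, while the treated Hen1 KO library was at the WT value, and T made up 23.4% of the transcripts themselves.

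Reads antisense to pseudogenes are not in the set defined above and were counted apart. They numbered 2492 in Hen1 KO with NaIO4, 16046 in Hen1 KO, 1258 in Mili KO, 15098 in WT with NaIO4, 26276 in the MILI IP and 6818 in WT. Of sense and antisense reads together they made up 52.7% in Hen1 KO with NaIO4, 35.5% in Hen1 KO, 84.7% in Mili KO, 32.8% in WT with NaIO4, 28.4% in the MILI IP and 35.6% in WT. These antisense reads may also be antisense to other genes, whereas the sense set matches pseudogenes alone. Restricted to reads antisense to pseudogenes alone, a restriction added after the shares were seen, the antisense share was 31.3% in Hen1 KO with NaIO4, 28.2% in Hen1 KO, 56.1% in Mili KO (51.7 to 60.4), 26.1% in WT with NaIO4, 22.7% in the MILI IP and 25.8% in WT. Sense reads were thus the majority by both counts in Hen1 KO, WT with NaIO4, the MILI IP and WT, and antisense reads by both counts in Mili KO, while the majority in Hen1 KO with NaIO4 turned with the count. One group behaved differently: antisense reads to nuclear copies of mitochondrial genes, such as Gm10222 and Gm28439, numbered 431 in Hen1 KO with NaIO4, 823 in Hen1 KO, 561 in Mili KO, 471 in WT with NaIO4, 43 in the MILI IP and 812 in WT. They had a ratio of 1.05 in Mili KO against WT and of 0.0154 in the MILI IP against WT. Such reads cannot be told apart from RNA of the mitochondrial genome itself, to which Gm10222 and Gm28439 are 100% identical. Without the mitochondrial copies the antisense share was 48.0% in Hen1 KO with NaIO4, 34.3% in Hen1 KO, 77.2% in Mili KO, 32.1% in WT with NaIO4 and 32.8% in WT, and the ratio of their antisense reads was 0.177 in Mili KO and 1.27 in the MILI IP, both against WT.

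The other leading antisense sources were Gm18609 and Gm48009, processed pseudogenes with no one-gene sense read and no parent by the criteria used. Their most abundant antisense sequences are shown because they carry the strand of the reads at the 2 loci. These sequences lie at chr6:128185937-128185964 on the minus strand and chr13:49891903-49891932 on the plus strand, each opposite to its pseudogene. Another annotated gene, Gm10010, overlaps Gm18609 on the strand of its antisense reads, and the part of that gene was not tested.
Gm18609: Tgagaaggccctgatgatcacatcattt
Gm48009: TataaacacAgcactctctagcctagcagc
Gm18609 had 236 antisense reads in Hen1 KO with NaIO4, 3421 in Hen1 KO, 0 in Mili KO, 2339 in WT with NaIO4, 4854 in the MILI IP and 821 in WT, and 92.9% of them began with T in the MILI IP. Its ratio with NaIO4 was 0.311 in Hen1 KO and 2.03 in WT, and its ratio to WT was 2.61 in Hen1 KO and 1.71 in the MILI IP. Gm48009 had 76 antisense reads in Hen1 KO with NaIO4, 1351 in Hen1 KO, 0 in Mili KO, 1312 in WT with NaIO4, 3031 in the MILI IP and 378 in WT. Gm48260 of the Vmn2r79 family had 9 antisense reads in Hen1 KO with NaIO4, 145 in Hen1 KO, 0 in Mili KO, 693 in WT with NaIO4, 542 in the MILI IP and 295 in WT. All 3 had 0 antisense reads in Mili KO.

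Some pseudogene piRNAs were antisense to another gene. The share of member reads with an exact antisense match to a protein-coding transcript was 6.12% in Hen1 KO with NaIO4, 8.08% in Hen1 KO, 2.64% in Mili KO, 8.89% in WT with NaIO4, 7.52% in the MILI IP and 10.5% in WT. Among sequences antisense to a single protein-coding gene, the gene with the most reads in the MILI IP was D10Wsu102e, with 31 in Hen1 KO with NaIO4, 643 in Hen1 KO, 0 in Mili KO, 590 in WT with NaIO4, 1324 in the MILI IP and 260 in WT, from many pseudogenes. The second was Olfr839-ps1, typed as protein-coding in M21 despite its name, with 258 reads in the MILI IP and 128 in WT. The third was Usp34, which encodes a ubiquitin protease, with 228 reads in the MILI IP and 6 in WT, all from Gm48789.

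Sense and antisense 5′ ends that overlap by 10 nt were more frequent than other overlaps on pseudogene transcripts. There were 89 such pairs of positions in the MILI IP, where the other overlaps from 1 to 20 nt had a median of 48 pairs and a highest of 58. In Hen1 KO there were 56 pairs, against a median of 25 and a highest of 31, and in WT 20 pairs, against a median of 7 and a highest of 12. The z-score of the 10-nt count among the others was 3.20 in Hen1 KO with NaIO4 (3 pairs), 7.07 in Hen1 KO, 4.88 in WT with NaIO4, 4.47 in the MILI IP and 5.22 in WT. In Mili KO there was no pair at any overlap. Olfr1372-ps1 held 19 of the MILI IP pairs and Gm48368 held 8. Without Olfr1372-ps1 the z-score was 5.65 in Hen1 KO and 2.58 in WT with NaIO4.

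**Figure D5:**
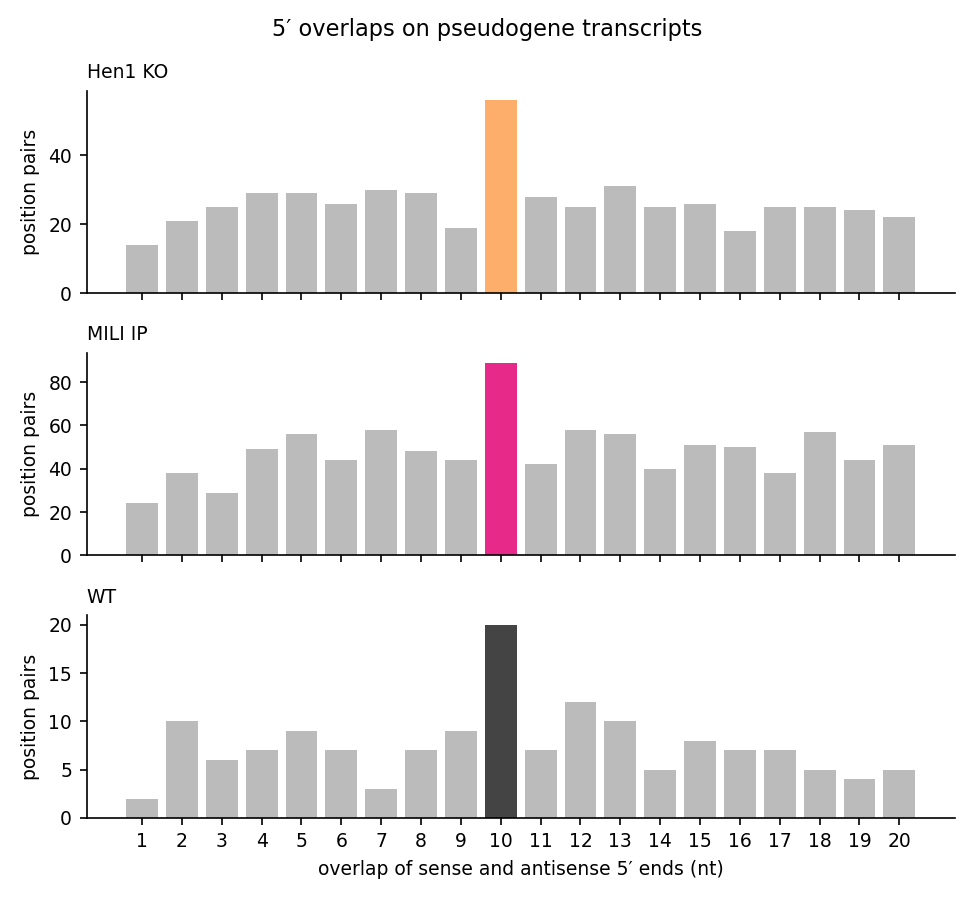
Number of pairs of sense and antisense 5′ end positions (vertical axis) at each overlap from 1 to 20 nt (horizontal axis) on pseudogene transcripts in Hen1 KO, the MILI IP and WT. The bar at 10 nt is the highest in each library, with 56 pairs in Hen1 KO, 89 in the MILI IP and 20 in WT.

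Shorter reads that fit pseudogenes alone, of 20 to 24 nt, were counted in the same way. They took 0.0339% of reads in Hen1 KO with NaIO4, 0.0267% in Hen1 KO, 0.00584% in Mili KO, 0.0170% in WT with NaIO4, 0.0230% in the MILI IP and 0.0164% in WT. T stood first in 73.7% of them in Hen1 KO with NaIO4, 77.0% in Hen1 KO, 54.4% in Mili KO, 75.8% in WT with NaIO4, 81.9% in the MILI IP and 73.8% in WT, values close to those of the longer reads except in Mili KO. Of all members 12407 (44.5%) lay within 1 mismatch of a transcript that is no pseudogene, and these held 50.5% of reads in the MILI IP and 57.3% in WT. Members with such a neighbour over 50 times as abundant, which a sequencing error could feed, held only 1.41% in the MILI IP and 0.898% in WT.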

How the data were processed

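Each deposited file lists distinct read sequences with their counts, which the authors made from the reads of 1 library. Per the submitters' processing notes Bowtie and mm10 were used; the sources used here give no adapter trimming or filters. Deposited counts of 18 to 35 nt formed the denominators. Sequences were matched exactly to GENCODE M21 transcripts (spliced, so introns were not searched) with Python 3.11.15, numpy 2.4.6 and numba 0.67.0. Small RNA genes were matched in the sense direction, and 2 members match one antisense. Neighbours were sought at 1 mismatch. The parent was the symbol before -ps or the best BLAST+ 2.17.0 hit (at least 100 bases, 75% identity, E at most 1e-10). Ratios divide shares after 0.5 was added per gene, with 95% log-scale counting intervals. Read filters sum both libraries of a pair, so a pseudogene can pass through the library where it is high. The exact-match scan was checked on sampled transcript windows and the 2-fold rule on simulated counts. The other steps were not checked in this way. The pseudogenes named are the 12 leading in the MILI IP, the 8 leading in WT, the 3 highest and 3 lowest of each comparison with at least 200 reads in its 2 libraries together, the 10 leading parent families and the 5 leading antisense sources; 1 family is not reported here. Members and lists were chosen with earlier results of these data known.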

Additional observations from a re-analysis of the deposited data

Results flagged for a closer look

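The ratio with NaIO4 lay on opposite sides of 1 in the 2 genotypes, below it in Hen1 KO and above it in WT, for the pseudogene piRNAs as a whole and for 11 named pseudogenes. The quotient of the Hen1 KO ratio over the WT ratio was 0.193 for all members. It was 0.153 for Olfr1372-ps1, 0.123 for Rps4l, 0.148 for Gm48368, 0.271 for Gm6641 and 0.158 for Zfp862-ps. It was 0.116 for Gm48244, 0.117 for Gm48348, 0.119 for B020017C02Rik, 0.0815 for 6820431F20Rik, 0.145 for Gm12957 and 0.153 for Ube2d-ps. With 1 library in each group the difference was not tested, and 96.8% of all genes with enough reads had a quotient of at most 0.5.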

How the results depend on the processing

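No paired analysis was possible because each group had 1 library, and for the same reason no replicate could be left out. Values are given in the order Hen1 KO with NaIO4 against Hen1 KO, WT with NaIO4 against WT, Hen1 KO against WT, Mili KO against WT, MILI IP against WT, and the quotient of both NaIO4 ratios, and the cause of a shift was not tested. Per microRNA read the ratios were 0.936, 23.0, 3.86, 0.0158, 35.6 and 0.0408. Per piRNA-like read they were 0.858, 1.15, 1.05, 0.0884, 0.894 and 0.744. With each distinct sequence counted once they were 0.796, 1.13, 0.992, 0.100, 0.901 and 0.702. With no other gene within 1 mismatch they were 0.310, 1.86, 1.53, 0.0173, 1.80 and 0.167. With at least 10 reads for a sequence they were 0.379, 1.83, 1.34, 0.0219, 1.44 and 0.207. With 1 pseudogene only, those that moved were 0.312 (NaIO4 in Hen1 KO), 1.58 (Hen1 KO), 0.0232 (Mili KO), 1.51 (MILI IP) and 0.175 (quotient). At 26 to 30 nt they were 0.327 (NaIO4 in Hen1 KO), 1.43 (Hen1 KO), 0.0193 (Mili KO) and 0.181 (quotient). Without Olfr1372-ps1 they were 1.25 (Hen1 KO) and 0.204 (quotient).

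Shares of the library with no other gene within 1 mismatch were 0.0342% in Hen1 KO with NaIO4, 0.110% in Hen1 KO, 0.00125% in Mili KO, 0.134% in WT with NaIO4, 0.130% in the MILI IP and 0.0721% in WT. At 26 to 30 nt they were 0.0680%, 0.208%, 0.00281%, 0.262%, 0.229% and 0.145% in the same order. T at position 1, with distinct sequences counted once, was 72.3% in Hen1 KO with NaIO4, 72.7% in Hen1 KO, 72.4% in WT with NaIO4, 72.5% in the MILI IP and 69.9% in WT, and A at position 10 was 38.2% in Hen1 KO, 38.4% in WT with NaIO4, 34.4% in the MILI IP and 40.3% in WT. Without Olfr1372-ps1, T was 70.6%, 75.1%, 73.4%, 80.2% and 69.1%, and A was 47.4%, 42.9%, 47.5%, 40.2% and 48.0%, in Hen1 KO with NaIO4, Hen1 KO, WT with NaIO4, the MILI IP and WT. 4 alternatives were chosen after seeing the data. Without Gm6641, T was 78.4% in WT with NaIO4, 82.1% in the MILI IP and 74.4% in WT, and A was 44.5%, 38.2% and 44.2%. Without mitochondrial copies the antisense share was 48.0% in Hen1 KO with NaIO4, 34.3% in Hen1 KO, 77.2% in Mili KO, 32.1% in WT with NaIO4 and 32.8% in WT. With reads antisense to pseudogenes alone it was 31.3% in Hen1 KO with NaIO4, 28.2% in Hen1 KO, 56.1% in Mili KO, 26.1% in WT with NaIO4, 22.7% in the MILI IP and 25.8% in WT. Without Olfr1372-ps1 the z-score of 10-nt pairs was 5.65 in Hen1 KO and 2.58 in WT with NaIO4.

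Counts of pseudogenes past 2-fold moved as follows. At 4-fold, 26 were lower with NaIO4 in Hen1 KO and 5 higher with NaIO4 in WT, 5 were higher and 0 lower in Hen1 KO, and 26 were higher and 4 lower in the MILI IP. At 200 reads, 0 were higher and 14 of 14 lower with NaIO4 in Hen1 KO, 11 of 25 higher with NaIO4 in WT, 5 higher and 1 lower of 17 in Hen1 KO, 4 of 4 lower in Mili KO, 20 higher and 0 lower of 38 in the MILI IP, and for the quotient 0 were higher and 13 of 13 lower. Per microRNA read, 4 were higher and 14 lower of 67 with NaIO4 in Hen1 KO, 98 of 98 higher with NaIO4 in WT, 68 higher and 0 lower of 93 in Hen1 KO, 151 higher and 0 lower of 152 in the MILI IP, and 0 of 60 higher for the quotient. With shared reads divided among pseudogenes, 3 were higher and 83 lower of 98 with NaIO4 in Hen1 KO, 3 of 127 lower in Hen1 KO, 44 of 46 lower in Mili KO, 106 of 213 higher in the MILI IP, and for the quotient 2 were higher and 87 lower of 92. In all, 119 of these values moved past their counting interval or 1.5-fold, 3 changed direction and 44 did neither. The depth of Hen1 KO with NaIO4 puts 3 reads at 1.15 rpm, against 0.119 rpm in the MILI IP, so single pseudogenes at low levels were not detectable there.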
